A study of Mus musculus with 6 samples.

Results

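The translation initiation factors were described here as the 53 rows, of 55401 in the deposited gene table, whose symbol begins with Eif and a digit from 1 to 6. Of the 68 rows matching that pattern, 4 eIF2 kinase genes, 10 pseudogenes and 1 gene on the Y chromosome were left out. The remaining members were sorted by factor complex. Of the 53 members, 48 had enough counts to be tested among 15272 tested genes. Membership rests on the symbol alone, so Eif2c5 (a symbol of the argonaute family) and Eif1ad (a protein with an eIF1A domain) are included without being core factors.

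RNA-seq had been done on 3 control and 3 NETs-treated samples of mouse cells, all wild type. Control samples were cells kept without neutrophil extracellular traps (NETs), the DNA and protein webs shed by neutrophils, and treated samples were cells given them. The labels call the cells BMDM, bone marrow-derived macrophages, but each sample title starts with BV2, which is also the name of a microglial cell line. The sources used here give no dose, duration, mouse strain or age. They also do not say that the samples of a group were separate cultures or animals, and p-values therefore measure a spread between samples that may be technical.

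Library totals lay between 39994613 and 44274445 counts. Of 8 macrophage markers, 7 averaged 1 CPM or more (CPM is the count scaled to library depth, here with the TMM scaling of edgeR), the exception being Mrc1. Their summed level was 5737 to 5899 CPM in control and 10345 to 10642 CPM in NETs-treated libraries, and Cd14 alone went from 687 to 698 CPM up to 5379 to 5540 CPM. Of the 8 macrophage markers Cd14 and Lyz2 rose, and the other 6 fell, with log2 fold changes of -1.03 for Csf1r, -0.55 for Spi1, -0.47 for Itgam, -0.39 for Cd68, -0.35 for Adgre1 and -1.58 for Mrc1. Of the microglia markers, Sall1 was at 0, and Tmem119 had 1.44 ± 0.562 CPM in control and 5.04 ± 0.459 CPM in treated libraries (SD, n = 3 each). P2ry12 had 0.878 ± 0.195 CPM in control and 0.129 ± 0.113 CPM in treated libraries. Cx3cr1 had 1.99 ± 0.507 and 0.838 ± 0.422 CPM, and Gpr34 had 1.86 ± 0.378 and 0.0941 ± 0.163 CPM. Of these Tmem119 rose, and P2ry12, Cx3cr1 and Gpr34 fell. Olfml3 did not pass, and Siglech had at most 3 counts in a library. Of 9 neutrophil markers 6 were at 0 and S100a8 alone had a mean above 1 CPM, with sums of 2.23 to 3.53 CPM in control and 8.89 to 14.1 CPM in treated libraries. Endothelial markers summed to 66.7 to 71.7 CPM in control and 27.9 to 32.0 CPM in treated libraries, mainly Vwf, and dendritic cell markers to 152 to 160 and 59.7 to 60.2 CPM, mainly Itgax. Markers of T cells, B cells, fibroblasts and mast cells all had means under 1 CPM. The part of these marker differences in the results below was not tested. In bulk RNA, fewer cells of a type and less RNA per cell cannot be told apart.

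Initiation factors bring the ribosome to the start codon of an mRNA. The small ribosomal subunit, loaded with eIF1, eIF1A, eIF3, eIF5 and the initiator tRNA carried by eIF2, is recruited to the capped end of the mRNA by eIF4E, the scaffold eIF4G and the helicase eIF4A, and scans to the start codon, where eIF5B helps the large subunit to join. Supply of eIF2 bound to GTP depends on the exchange factor eIF2B, which phosphorylated eIF2 inhibits, and supply of eIF4E depends on the 4E-binding proteins, which mTORC1 inactivates. In macrophages these controls are known to shape which mRNAs are translated during inflammatory activation.

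Initiation factor transcripts moved in both directions and by small amounts. Of the 48 tested members, 18 rose and 11 fell in NETs-treated cells, together 60.4% (quasi-likelihood test of edgeR at an adjusted p under 0.05, Benjamini-Hochberg over all tested genes, n = 3 per group). The share called among all tested genes was 52.7%, with 25.5% higher and 27.2% lower, against 37.5% higher and 22.9% lower among the tested members. Initiation factors are abundant transcripts, with a median level of 168 CPM against 19.2 CPM for all tested genes. When only genes averaging 10 CPM or more were counted, 61.7% of 47 members and 64.3% of all genes were called, so above that floor the shares were close. Levels above the floor were not matched. Only Eif4g3 and Eif4e3 changed at least 2-fold, 4.17% of the tested members against 19.3% of all tested genes. The log2 fold changes of the members ran from -1.29 to 0.65, with a median of 0.12, against a median of -0.02 over all tested genes. Disregarding sign, the median log2 fold change was 0.34 for the members and 0.52 for all tested genes. Groups did not overlap for 34 of 48 tested members, 70.8% against 62.4% of all tested genes. The share of 2-fold changes, the medians and the share without overlap were not set against genes of like abundance.

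**Figure D1:**
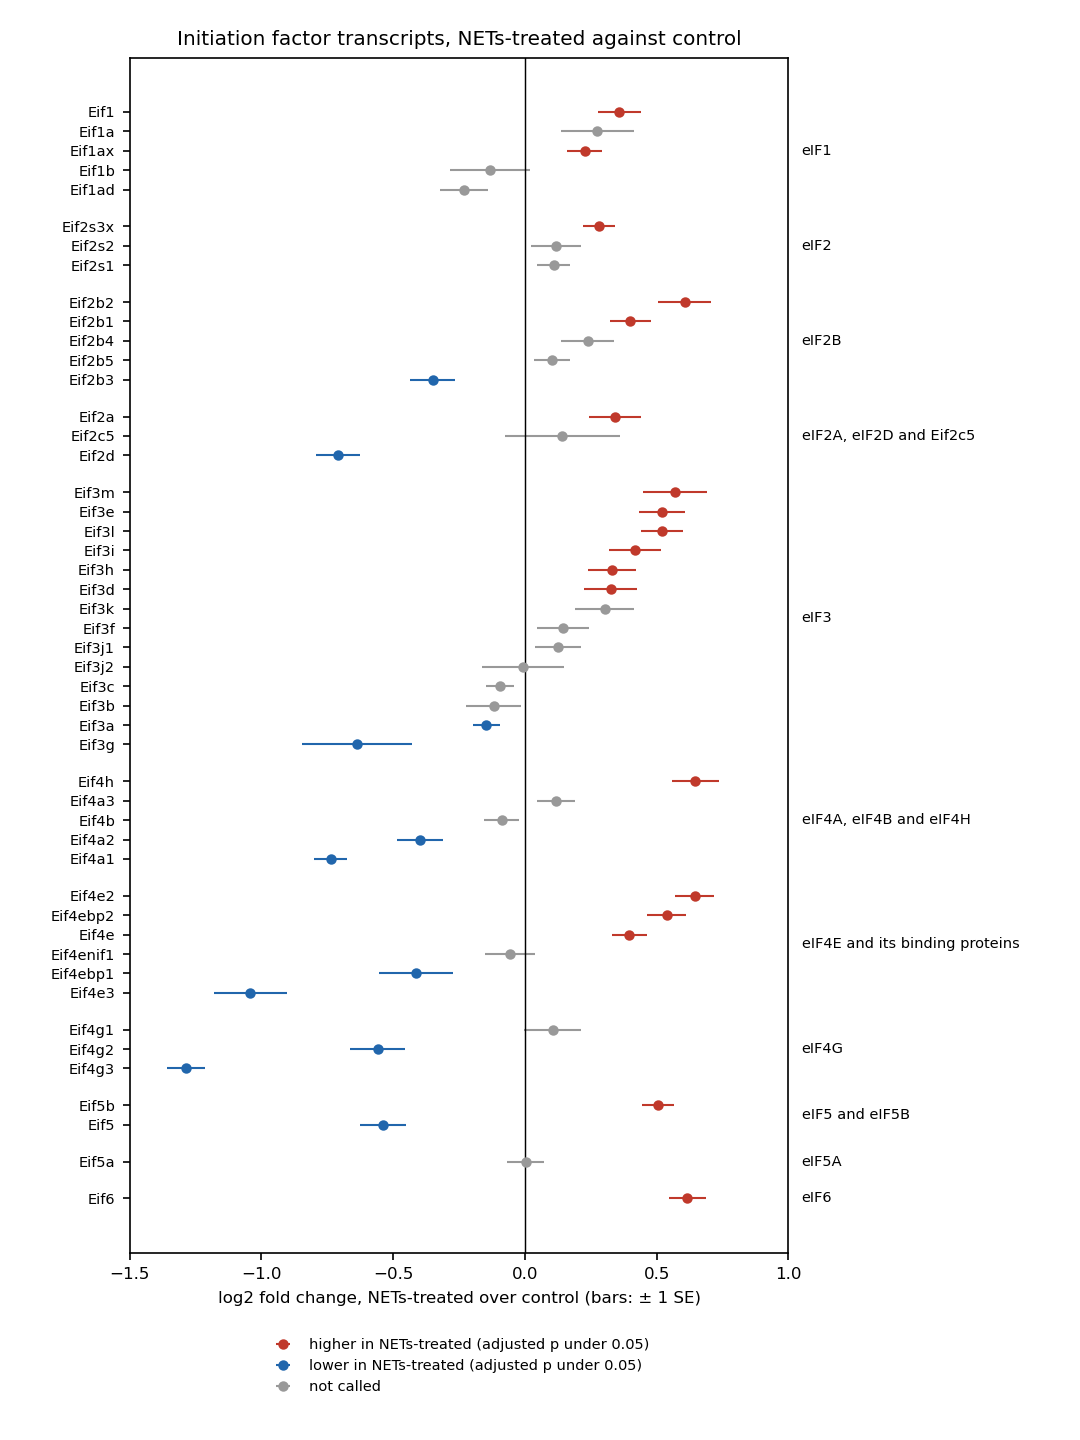
The log2 fold change of each of the 48 tested initiation factors, NETs-treated over control, with bars of 1 SE on either side (n = 3 per group), grouped by complex; red points were called higher, blue points lower and grey points neither. Rises reach 0.65 (Eif4h), and falls reach -1.29 (Eif4g3). Called rises and falls both occur within eIF2B, eIF3, the eIF2A, eIF4A and eIF4E groups, and the group of eIF5 and eIF5B.

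The eIF4F machinery reads the cap. Among the eIF4G scaffolds, which bridge eIF4E, eIF4A and eIF3, 2 of 3 tested genes fell and none rose. Eif4g3, the gene of the scaffold paralog eIF4GII, had 135, 136 and 138 CPM in the control libraries and 59.8, 53.0 and 54.9 CPM in the NETs-treated libraries. Its groups lay far apart and each was tight. The log2 fold change of -1.29 ± 0.07 (SE; adjusted p = 3.17e-06) corresponds to a treated mean of 0.410 times the control mean, and it was the largest change of any tested member. Eif4g3 (ENSMUSG00000028760.16) spans chromosome 4 from 137993022 to 138208508 in GRCm38. Eif4g2, which encodes a scaffold without the eIF4E-binding part (also called DAP5), had 738, 795 and 816 CPM in control and 454, 530 and 610 CPM in treated libraries. All treated values were below all control values, although the treated ones were widely spread, and the log2 fold change was -0.56 ± 0.10 (adjusted p = 0.00193). Eif4g1, the main scaffold, had 598, 570 and 553 CPM in control and 702, 641 and 510 CPM in treated libraries. These groups overlapped, with NETs-treated replicate 3 below every control, and Eif4g1 did not pass (log2 fold change 0.11 ± 0.11, adjusted p = 0.443). Without NETs-treated replicate 3 it was called, at 0.24 and an adjusted p of 0.00854.

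Set per length, the balance among the scaffolds differed between the groups. The ratio of Eif4g3 to Eif4g1, in CPM per kilobase of exon, was 0.149, 0.157 and 0.165 in control and 0.0563, 0.0545 and 0.0710 in treated libraries. That of Eif4g2 to Eif4g1 was 0.887, 1.00 and 1.06 in control and 0.465, 0.594 and 0.859 in treated libraries. Neither ratio overlapped between the groups. Such ratios were not tested.

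Of the 3 tested eIF4E genes, which encode cap-binding proteins, 2 rose and 1 fell. Eif4e, the canonical cap-binding factor, had 131, 141 and 136 CPM in control and 171, 184 and 181 CPM in treated libraries. The groups were well apart, and the log2 fold change was 0.40 ± 0.07 (adjusted p = 0.00106). Eif4e2, the gene of 4EHP, a paralog that binds the cap and represses translation, had 78.4, 73.9 and 69.7 CPM in control and 118, 118 and 111 CPM in treated libraries. It too was higher in every treated library, with a log2 fold change of 0.64 ± 0.07 (adjusted p = 0.000137). Eif4e3, an unusual cap-binding paralog, had 16.4, 18.4 and 19.6 CPM in control and 8.91, 9.85 and 7.66 CPM in treated libraries. Its log2 fold change was -1.04 ± 0.14 (adjusted p = 0.000331), with no overlap. The annotation places Gm20696 over 14.8% of its exon bases on the same strand, so the origin of those reads is uncertain. Per kilobase of exon, Eif4e3 stood at 0.319 ± 0.0221 of the Eif4e level in control and at 0.118 ± 0.0145 in treated libraries (SD, n = 3 each), and Eif4e2 at 0.438 ± 0.0381 and 0.519 ± 0.0289.

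The 4E-binding proteins sequester eIF4E when they are not phosphorylated, and their 2 tested genes moved in opposite directions. Eif4ebp1 had 128, 109 and 106 CPM in control and 105, 82.0 and 71.7 CPM in treated libraries. The highest treated value lay just under the lowest control value, and the log2 fold change was -0.41 ± 0.14 (adjusted p = 0.0349). This call was lost when any of the control libraries was left out (log2 fold changes of -0.33, -0.45 and -0.47, adjusted p = 0.128, 0.0634 and 0.0548), or NETs-treated replicate 2 (-0.36, 0.116) or 3 (-0.29, 0.0804). It was also lost with no filter on low counts (-0.42, adjusted p = 0.0728) and with a correction for transcript length (-0.30, adjusted p = 0.0844). Eif4ebp2 had 126, 112 and 120 CPM in control and 170, 165 and 184 CPM in treated libraries. These values were clearly separate, with a log2 fold change of 0.54 ± 0.07 (adjusted p = 0.000391). Per kilobase of exon, the level of Eif4ebp1 was 2.69, 2.56 and 2.34 times that of Eif4ebp2 in control and 1.62, 1.31 and 1.03 times in treated libraries. The ratio of Eif4ebp2 to Eif4e overlapped between groups (0.914 ± 0.0847 and 1.01 ± 0.0650), while that of Eif4ebp1 to Eif4e went from 2.32 ± 0.323 to 1.32 ± 0.306 without overlap. Eif4enif1, the gene of the eIF4E transporter, did not pass (-0.06 ± 0.10, adjusted p = 0.648). Eif4e1b and Eif4ebp3 were not tested: the first had no counts, and the second had at most 8 counts in a library.

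**Figure D2:**
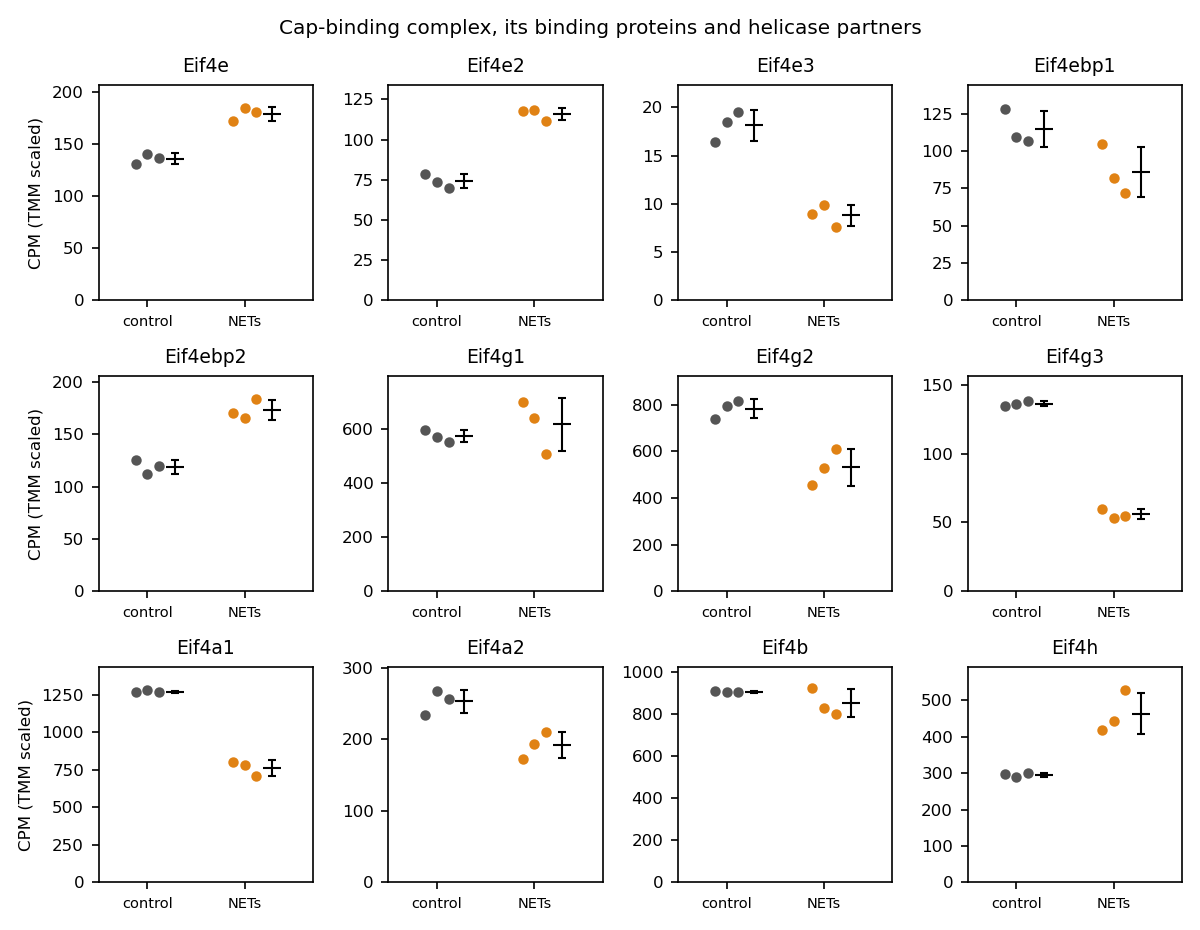
CPM (TMM scaled) of 12 genes of the cap-binding machinery in each library, 1 point per library, with the mean and SD of each group beside them; each panel has its own axis starting at 0. Eif4g3, Eif4e3 and Eif4a1 lie lower and Eif4e, Eif4e2, Eif4ebp2 and Eif4h higher in all 3 treated libraries, whereas Eif4g1 and Eif4b overlap.

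The eIF4A helicases unwind mRNA leaders, and eIF4B and eIF4H stimulate them. Of the 5 tested genes of this group 1 rose and 2 fell. Eif4a1, the main helicase, had 1264, 1277 and 1269 CPM in control and 804, 779 and 705 CPM in treated libraries. It was among the most abundant members per kilobase of exon, and no treated library came near the control range. The log2 fold change was -0.74 ± 0.06 (adjusted p = 2.57e-05). Of the 50-base stretches in its longest transcript, 33.3% also occur in transcripts of other genes, mostly the pseudogene Eif4a-ps4, so its level is uncertain, also in the ratio below. Eif4a2, the second cytoplasmic helicase, had 235, 268 and 257 CPM in control and 173, 194 and 210 CPM in treated libraries. Every treated value was lower, with a log2 fold change of -0.40 ± 0.09 (adjusted p = 0.00515). Per kilobase of exon, Eif4a1 stood at 6.63, 5.88 and 6.08 times Eif4a2 in control and at 5.72, 4.95 and 4.13 times in treated libraries.

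Eif4h went the other way, from 299, 290 and 300 CPM in control to 418, 445 and 527 CPM in treated libraries. The groups were far apart, and its log2 fold change of 0.65 ± 0.09 (adjusted p = 0.000385) was the highest of the tested members. Eif4b, the other helicase cofactor, had 904 ± 3.35 CPM in control and 850 ± 66.3 CPM in treated libraries (SD, n = 3 each), with overlap, and did not pass (-0.09 ± 0.07, adjusted p = 0.291). Without NETs-treated replicate 1 it was called, at -0.13 and an adjusted p of 0.0475. Eif4a3, a helicase of the exon junction complex rather than of initiation, did not pass either (0.12 ± 0.07, adjusted p = 0.210). Its copies Eif4a3l1, with no counts, and Eif4a3l2, with at most 9 counts in a library, were not tested.

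The eIF3 scaffold on the small subunit had 14 members, all tested, of which 6 rose and 2 fell. The median of the 14 log2 fold changes was 0.22. In human eIF3 these proteins are known to form an octamer core (subunits a, c, e, f, h, k, l and m) with a peripheral module around b, g and i. Of the 8 core genes, Eif3m, Eif3e, Eif3l and Eif3h rose, Eif3a fell, and Eif3c, Eif3f and Eif3k did not pass. Eif3m had 172, 193 and 186 CPM in control and 225, 271 and 320 CPM in treated libraries. All treated values were higher, though spread over a wide range, and the log2 fold change was 0.57 ± 0.12 (adjusted p = 0.00413). Eif3e had 282, 298 and 292 CPM in control and 368, 419 and 463 CPM in treated libraries. The separation was again complete (0.52 ± 0.09, adjusted p = 0.00117). Eif3l had 214, 219 and 222 CPM in control and 341, 317 and 281 CPM in treated libraries. It was higher in each treated library (0.52 ± 0.08, adjusted p = 0.000688).

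Eif3h, with 389, 398 and 398 CPM in control and 545, 518 and 427 CPM in treated libraries, had a log2 fold change of 0.33 ± 0.09 (adjusted p = 0.0141). Its lowest treated value was just above the controls. Of its 50-base stretches 26.2% also occur in other genes, nearly all in AC122253.2, so its level is uncertain. Without control replicate 1 or 3 its adjusted p was 0.0552 and 0.0502, at 0.32 and 0.33. Eif3k was on the other side of the threshold, with 131, 128 and 133 CPM in control and 177, 175 and 131 CPM in treated libraries (0.30 ± 0.11, adjusted p = 0.0504). NETs-treated replicate 3 lay inside the control range, and without it the log2 fold change was 0.44 (adjusted p = 0.000414). Eif3k was called in 8 of the 16 alternatives, among them the Wald test of DESeq2 and the authors' deposited table (0.30, adjusted p = 0.0211). Eif3f had 276 ± 9.16 and 305 ± 42.3 CPM and did not pass (0.15 ± 0.10), but was called without NETs-treated replicate 3 (0.26, adjusted p = 0.00680). Eif3c varied little within each group, with 530, 532 and 533 CPM in control and 508, 498 and 487 CPM in treated libraries. Its groups did not overlap, and it did not pass (-0.10 ± 0.05, adjusted p = 0.161). With scaling by library size only Eif3c was called lower (adjusted p = 0.0235).

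Eif3a, the largest core subunit, had 951, 973 and 944 CPM in control and 886, 857 and 849 CPM in treated libraries. The difference was small, with a log2 fold change of -0.15 ± 0.05 (adjusted p = 0.0394), though no treated value reached the controls. This call was lost without any control library (log2 fold changes of -0.15, -0.14 and -0.16, adjusted p = 0.0938, 0.148 and 0.101) and without NETs-treated replicate 2 (-0.12, adjusted p = 0.167). With the size factors of DESeq2 (-0.13, adjusted p = 0.0550), its Wald test (-0.15, adjusted p = 0.0648) or a filter of 1 CPM in 3 libraries (-0.11, adjusted p = 0.0878) Eif3a was not called either. Nor was it in the authors' deposited table (adjusted p = 0.0663).

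Of the peripheral subunits, Eif3i rose, Eif3g fell and Eif3b did not pass. Eif3g, an RNA-binding subunit, had 109, 89.9 and 87.7 CPM in control and 80.9, 61.1 and 42.0 CPM in treated libraries. The groups did not overlap, but the treated values were widely spread, and no other tested member had so wide a treated range, 0.94 on the log2(CPM + 0.5) scale. The log2 fold change of -0.64 ± 0.21 (adjusted p = 0.0305) did not stay called without control replicates 1, 2 or 3 (-0.53, -0.68 and -0.70, adjusted p = 0.111, 0.0586 and 0.0545) or without NETs-treated replicate 2 (-0.62, adjusted p = 0.0850), nor without the filter on low counts (-0.64, adjusted p = 0.0719). Eif3i had 166, 169 and 169 CPM in control and 190, 235 and 249 CPM in treated libraries (0.42 ± 0.10, adjusted p = 0.00738). Its treated values were all higher. Eif3b overlapped between groups (-0.12 ± 0.10) and, of all alternatives run, was called only without NETs-treated replicate 1 (-0.22, adjusted p = 0.0310).

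Eif3d, a subunit that can itself bind the cap of certain mRNAs, had 546, 559 and 545 CPM in control and 785, 703 and 582 CPM in treated libraries (0.33 ± 0.10, adjusted p = 0.0239). The treated values were higher but uneven, and the call was lost without control replicates 1, 2 or 3 (0.32, 0.34 and 0.32, adjusted p = 0.0770, 0.0663 and 0.0803) and without NETs-treated replicate 2 (0.33, adjusted p = 0.0577). Scaling by library size only (0.25, adjusted p = 0.0615) and leaving out the filter on low counts (0.32, adjusted p = 0.0595) ended it too. The antisense gene Gm17638 covers 43.3% of the exon bases of Eif3d. The sources used here do not state the strand setting of the counting, so whether reads of both genes were kept apart is unknown. The paralogs Eif3j1 and Eif3j2, of the loosely bound subunit j, did not pass (0.13 ± 0.09 and -0.01 ± 0.16). Of the 50-base stretches of Eif3j2, 91.8% occur in other genes, nearly all in Eif3j1, so the split of reads between the paralogs is uncertain.

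Levels per length differed widely among the eIF3 genes. In CPM per kilobase of exon, Eif3h was highest in control at 245 ± 3.19, followed by Eif3c at 151 ± 0.421. Eif3d (111 ± 1.60) and Eif3a (109.5 ± 1.71) did not differ beyond their spread. Eif3e was at 43.2 ± 1.25 and Eif3j2 lowest at 11.9 ± 2.21. The order between these ends depends on the length used: per kilobase of the longest transcript Eif3h still led at 305 ± 3.98, but Eif3d (216 ± 3.13) and Eif3a (187 ± 2.92) lay above Eif3c (157 ± 0.437). In the treated libraries Eif3m reached 105 ± 18.3 and lay at 0.857, 1.07 and 1.27 times Eif3a, against 0.608, 0.667 and 0.665 times in control. Eif3e went from 0.395 ± 0.00874 to 0.628 ± 0.0855 of Eif3a, and Eif3l from 0.548 ± 0.0135 to 0.868 ± 0.0661. These ratios were not corrected for GC content. With such a correction the log2 fold changes were 0.15 for Eif3e, 0.29 for Eif3m, 0.52 for Eif3l and -0.21 for Eif3a. Eif3g stood at 0.504, 0.407 and 0.409 of Eif3a in control and at 0.402, 0.314 and 0.218 in treated libraries, so the gap between the groups was narrow.

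**Figure D3:**
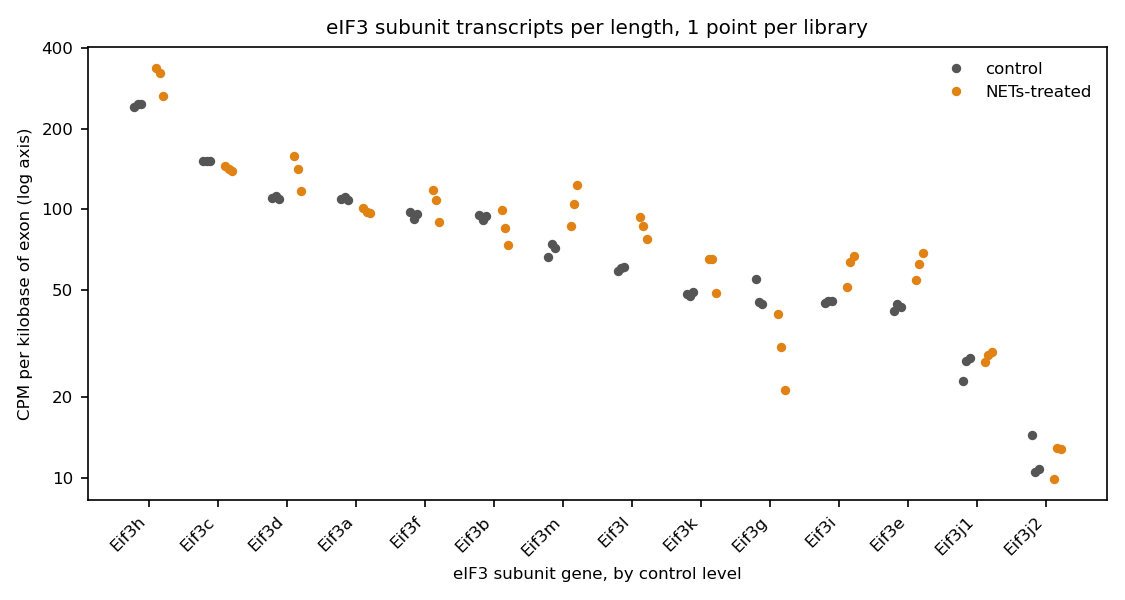
CPM per kilobase of exon of the 14 eIF3 genes on a log axis, 1 point per library (grey control, orange NETs-treated), in order of the control level. Eif3h leads at 245 and Eif3j2 is lowest at 11.9 in control; the treated points of Eif3m, Eif3e, Eif3l and Eif3i lie above and those of Eif3g below their controls.

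eIF2, the carrier of the initiator tRNA, had 3 members, of which 1 rose. Eif2s3x, the gene of the subunit that binds GTP, had 422, 454 and 447 CPM in control and 518, 534 and 557 CPM in treated libraries. It was higher in all treated libraries (0.28 ± 0.06, adjusted p = 0.00421). Of its 50-base stretches 36.2% also lie in Gm2223, so its level is uncertain. Eif2s1, which encodes the phosphorylated alpha subunit, had 233 ± 3.85 CPM in control and 251 ± 11.3 CPM in treated libraries (SD, n = 3 each), and Eif2s2, the beta subunit gene, had 351 ± 25.6 and 380 ± 45.2 CPM. Neither passed (0.11 ± 0.06, adjusted p = 0.173, and 0.12 ± 0.10, adjusted p = 0.335). With a correction for GC content Eif2s2 was called lower, at -0.15 (adjusted p = 0.0182).

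The 5 subunits of eIF2B, which reloads eIF2 with GTP, were all tested, and 2 rose while 1 fell. Eif2b2 (beta) had 64.7, 76.9 and 75.4 CPM in control and 120, 111 and 98.7 CPM in treated libraries. All treated values were above the controls (0.61 ± 0.10, adjusted p = 0.00111). Eif2b1 (alpha) had 35.6, 40.4 and 36.7 CPM in control and 50.1, 49.9 and 48.7 CPM in treated libraries (0.40 ± 0.08, adjusted p = 0.00285). Eif2b3 (gamma), a subunit of the catalytic part, had 39.4, 42.3 and 41.1 CPM in control and 30.2, 34.6 and 31.5 CPM in treated libraries, all lower (-0.35 ± 0.08, adjusted p = 0.00798). Eif2b4 (delta) and Eif2b5 (epsilon, the catalytic subunit) did not pass, at 0.24 ± 0.10 (adjusted p = 0.0781) and 0.10 ± 0.07 (adjusted p = 0.235). With a correction for GC content both were called higher (0.38, adjusted p = 0.0145, and 0.18, adjusted p = 0.0231). Both were also called with the length correction, and Eif2b4 with a filter of 1 CPM in 3 libraries. Groups of every eIF2B gene were free of overlap, as were those of 62.4% of all tested genes. Per kilobase of exon, Eif2b2 stood at 6.10 ± 0.374 times Eif2b3 in control and at 11.9 ± 1.62 times in treated libraries.

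Among factors that bring the initiator tRNA by other routes, Eif2d fell and Eif2a rose. Eif2d had 35.0, 38.2 and 37.3 CPM in control and 22.2, 23.5 and 22.0 CPM in treated libraries. The groups were tight and far apart (-0.71 ± 0.08, adjusted p = 0.000171). Eif2a, not to be confused with the alpha subunit of eIF2, had 94.9, 108 and 108 CPM in control and 115, 139 and 140 CPM in treated libraries (0.34 ± 0.10, adjusted p = 0.0167). Its lowest treated value was only slightly above the controls, and the call was lost without control replicate 1 (0.28, adjusted p = 0.0692) and without NETs-treated replicate 2 (0.32, adjusted p = 0.0636). Eif2c5 had 5.38 to 6.66 CPM in control and 5.29 to 8.38 CPM in treated libraries and did not pass.

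The eIF1 group had 5 members, of which 2 rose. Its core factors, eIF1 and eIF1A, keep the scanning ribosome open and check the start codon. Eif1 had 237, 249 and 245 CPM in control and 280, 315 and 342 CPM in treated libraries. All treated values were higher (0.36 ± 0.08, adjusted p = 0.00558). Of its 50-base stretches 31.6% also occur in other genes, so its level is uncertain. Eif1ax, an eIF1A gene on the X chromosome, had 119, 114 and 114 CPM in control and 130, 135 and 141 CPM in treated libraries (0.23 ± 0.07, adjusted p = 0.0184), again without overlap. That call was lost without control replicate 2 (0.21, adjusted p = 0.0832) or 3 (0.22, adjusted p = 0.0770) and without NETs-treated replicate 2 (0.25, adjusted p = 0.0505). It was lost as well with scaling by library size only (0.15, adjusted p = 0.0877) and with a correction for transcript length (0.17, adjusted p = 0.0552), and a correction for GC content put Eif1ax at -0.0075 (adjusted p = 0.940). Its autosomal paralog Eif1a had 153, 196 and 235 CPM in treated libraries, of which the first lay in the control range of 152 to 168 CPM, and it did not pass (0.28 ± 0.14, adjusted p = 0.125). Without NETs-treated replicate 1 it was called, at 0.44 and an adjusted p of 0.00355. Eif1b and Eif1ad did not pass (-0.13 ± 0.15 and -0.23 ± 0.09), and Eif1ad was called without NETs-treated replicate 1 (-0.30, adjusted p = 0.00895).

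Factors of the late steps also split. Eif5, whose protein makes eIF2 hydrolyse its GTP, had 631, 711 and 710 CPM in control and 420, 477 and 517 CPM in treated libraries. It was lower in each treated library (-0.54 ± 0.09, adjusted p = 0.00105). Eif5b, the GTPase of subunit joining, had 216, 227 and 229 CPM in control and 325, 320 and 308 CPM in treated libraries, all higher (0.51 ± 0.06, adjusted p = 0.000171). The opposite-strand gene Rev1 covers 16.8% of its exon bases. Per kilobase of exon, Eif5 went from 4.37 ± 0.162 times Eif5b in control to 2.13 ± 0.275 times in treated libraries. Eif6, which keeps the ribosomal subunits apart, had 86.5, 79.5 and 77.9 CPM in control and 127, 121 and 125 CPM in treated libraries. These groups were also separate (0.62 ± 0.07, adjusted p = 0.000141).

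Eif5a, whose protein carries hypusine and acts mainly in elongation, was among the most abundant members per length and showed no called difference. It had 713, 661 and 670 CPM in control and 741, 668 and 640 CPM in treated libraries. The values overlapped, with a log2 fold change of 0.00 ± 0.07 (adjusted p = 0.968). With a correction for GC content Eif5a was called higher, at 0.11 (adjusted p = 0.0456). Its paralog Eif5a2, with at most 7 counts in a library, was not tested. Both hypusine enzymes, Dhps and Dohh, did not pass (0.07 ± 0.09 and -0.31 ± 0.15).

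**Figure D4:**
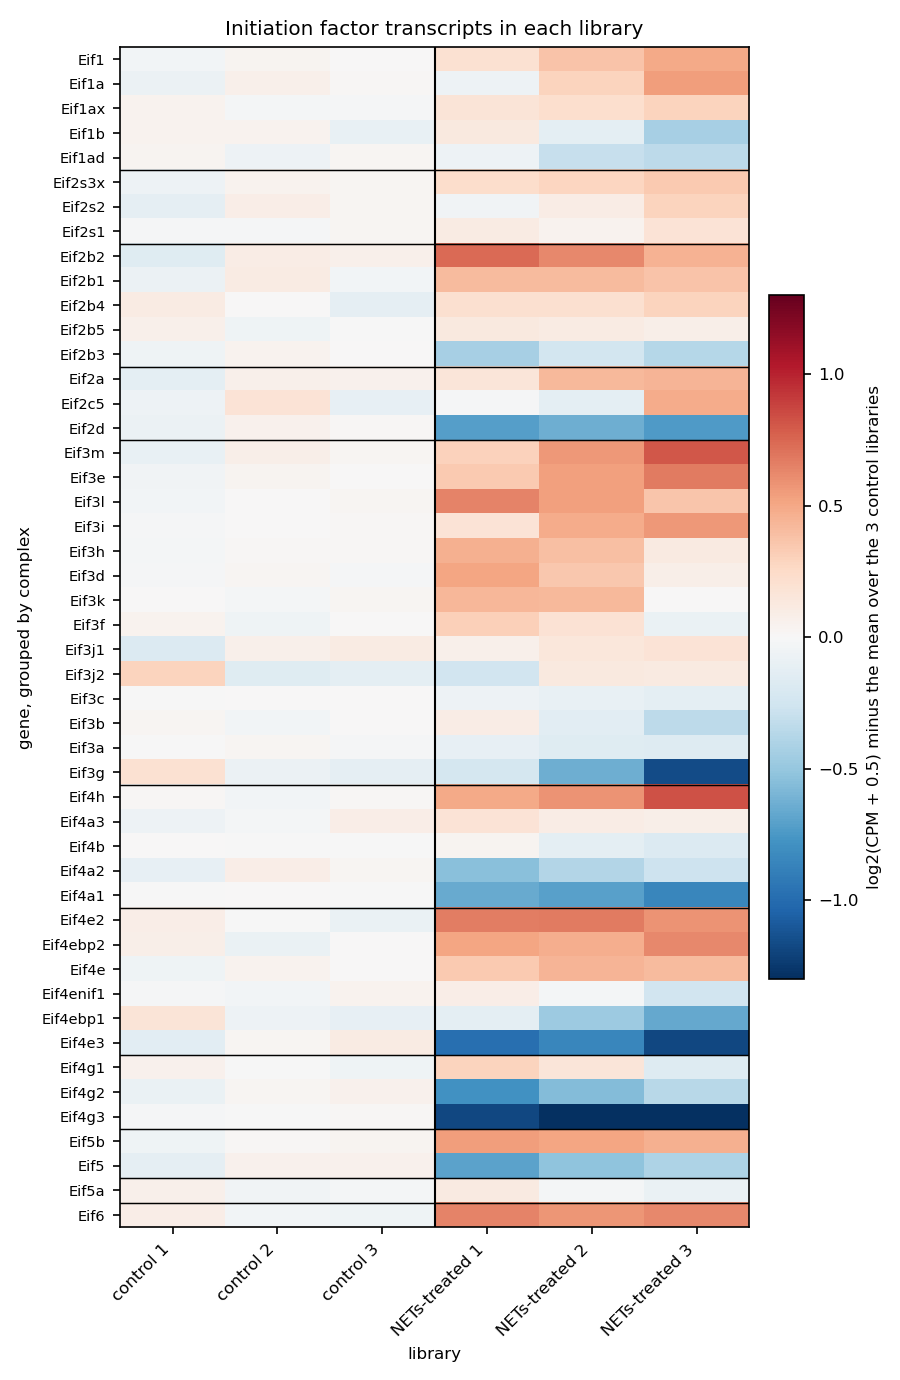
For each tested initiation factor, the log2(CPM + 0.5) value in each of the 6 libraries minus the mean over the 3 control libraries; red is above and blue below that mean, and black lines part the complexes. Most control columns are pale, and several eIF3 and eIF4 genes, such as Eif3g, Eif3m and Eif4g1, vary between the 3 treated columns.

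The members varied more among the treated than among the control libraries. The median SD of log2(CPM + 0.5) was 0.06 in control and 0.14 in treated libraries, against 0.11 and 0.18 over all tested genes. Within eIF3 the called rises did not follow one pattern over the treated libraries. Eif3m, Eif3e and Eif3i were highest in NETs-treated replicate 3 and lowest in replicate 1, whereas Eif3l, Eif3h and Eif3d were highest in replicate 1 and lowest in replicate 3. The GC content of the longest transcript was 38.8%, 36.2% and 47.6% for the first 3 genes and 49.8%, 51.3% and 51.3% for the last 3.

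Transcript GC content touched several members. The longest transcripts of Eif3e, Eif3m, Eif2a, Eif4e and Eif1ax hold 36.2%, 38.8%, 40.0%, 40.5% and 39.7% GC. With a correction for the trend of counts with GC content in each library, Eif3e went from 0.52 to 0.15 (adjusted p = 0.0325), Eif3m from 0.57 to 0.29 (adjusted p = 0.00160) and Eif4e from 0.40 to 0.19 (adjusted p = 0.0335). Under the same correction Eif2a was no longer called (0.11, adjusted p = 0.125), and Eif1ax was at -0.0075 (adjusted p = 0.940). The falls of Eif4a2 and Eif5, with 40.2% and 41.7% GC, were deeper with it, at -0.62 and -0.71. Eif4g3, Eif4e3 and Eif4a1 hardly moved, at -1.24, -1.08 and -0.76. The correction also added 6 calls without a change of sign. Eif2b4 (0.38), Eif3k (0.36), Eif4a3 (0.21), Eif2b5 (0.18) and Eif5a (0.11) were then called higher, and Eif1ad (-0.22) lower. Eif2s2 went from 0.12 to -0.15 and was called lower (adjusted p = 0.0182). The median GC content was 49.5% for the 18 members that rose, 46.3% for the 11 that fell and 50.2% for the other 19 tested members, against 49.4% for all tested genes. The part of GC content in these differences was not tested further.

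**Figure D5:**
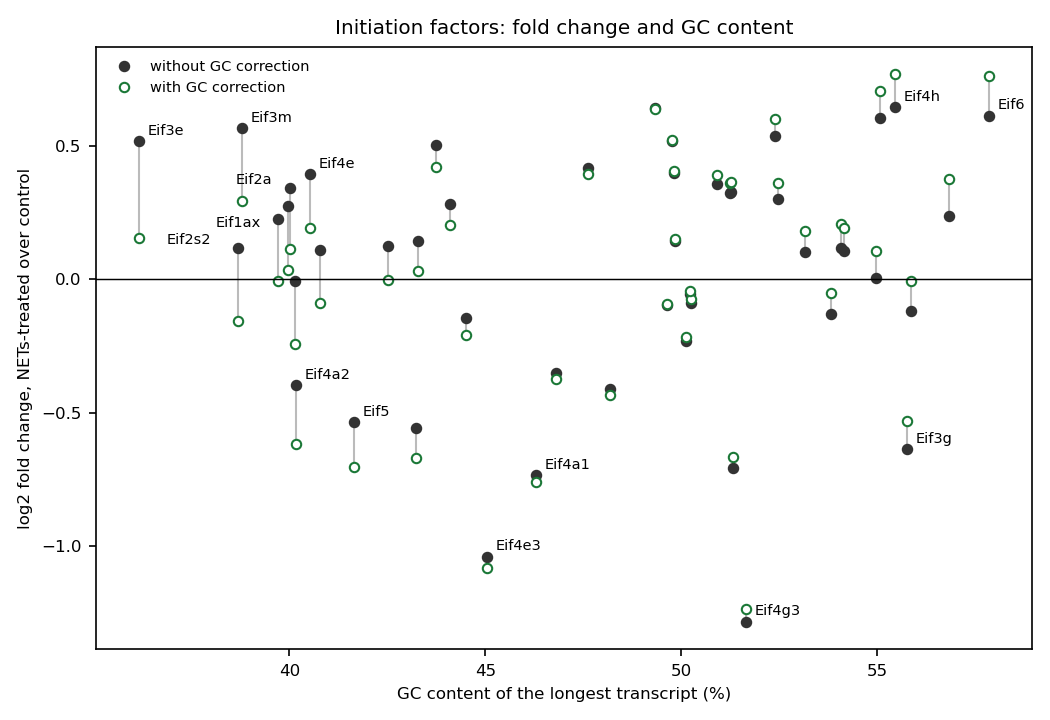
Log2 fold change of each tested initiation factor against the GC content of its longest transcript, without (filled) and with (open) a correction for the GC trend of each library; a line joins the 2 values of a gene. Genes near 40% GC, such as Eif3e, Eif3m and Eif4e, move down with the correction, and Eif6 and Eif4h, above 55% GC, move up.

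Promoter sequences from RefSeq (GRCm38.p6) were found for 40 of the 53 members. The E-box CACGTG, a palindrome bound by Myc and related factors, stood within 250 bases before a start in 9 of these 40 genes, against 6.86% of the 27025 genes in that table. The carriers were Eif1b, Eif3f, Eif3k, Eif4a1, Eif4e, Eif4g1, Eif4h, Eif5a and Eif5a2. Of these Eif4e and Eif4h rose, Eif4a1 fell, and the others did not pass or were not tested, so carriers of the motif did not share a direction. The sequences around the motif are shown for the 3 called genes, 5′ to 3′ on the strand of the gene, with the motif in capitals.
Eif4e, chr3:138527020-138527229, + strand: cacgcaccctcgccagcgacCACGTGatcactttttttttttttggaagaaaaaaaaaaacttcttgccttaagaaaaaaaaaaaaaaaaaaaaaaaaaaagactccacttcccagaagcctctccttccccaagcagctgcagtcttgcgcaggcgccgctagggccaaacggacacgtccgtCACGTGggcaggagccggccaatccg
Eif4h, chr5:134639480-134639525, - strand: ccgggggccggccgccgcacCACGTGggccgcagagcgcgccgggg
Eif4a1, chr11:69672587-69672632, - strand: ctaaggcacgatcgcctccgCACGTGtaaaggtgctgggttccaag
The 2 motifs of Eif4e begin 228 and 64 bases before the start, that of Eif4h 96 bases and that of Eif4a1 189 bases before it. The motif TGATGNAA, searched on both strands as the core of the response element of ATF4 and its partners, was found in 1 of the 40 genes, Eif2s3x, against 3.91% of genes in the table. A match describes these letters only.

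Other genes that regulate or assist initiation were counted in 9 lists, of which 59 genes were tested. Of these 15 rose and 21 fell, where 25.5% and 27.2% of all tested genes did. Of the 4 eIF2 kinase genes, Eif2ak1 (HRI, the heme-regulated kinase) rose, with 47.6, 50.4 and 52.3 CPM in control and 82.0, 90.9 and 85.7 CPM in treated libraries (0.78 ± 0.08, adjusted p = 5.65e-05). Eif2ak4 (GCN2, the amino acid sensor) fell by 0.28 on the log2 scale (adjusted p = 0.0114). Eif2ak2 (PKR) and Eif2ak3 (PERK) did not pass, at -0.12 and -0.21. Of 5 genes of the eIF2 alpha phosphatase, 1 rose and 2 fell. Ppp1r15a (GADD34, the inducible cofactor) had 85.4, 76.0 and 78.8 CPM in control and 39.2, 36.0 and 33.9 CPM in treated libraries (-1.14 ± 0.09, adjusted p = 1.37e-05). Ppp1r15b, the constitutive cofactor, rose (0.44 ± 0.06, adjusted p = 0.000281), and Ppp1cc, a catalytic subunit, fell by 0.24. Per kilobase of exon the ratio of Ppp1r15a to Ppp1r15b went from 0.904 ± 0.0607 in control to 0.303 ± 0.0230 in treated libraries. All 8 genes listed for the ATF4 arm, which lies downstream of eIF2 phosphorylation, fell. Their median log2 fold change was -1.58, and among them were Ddit3 (-4.78), Trib3 (-3.12), Sesn2 (-1.83) and Atf5 (-1.33). Phosphorylation of eIF2 was not measured.

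Of 13 genes of mTORC1 and its kinase output, 1 rose and 5 fell. Deptor, an mTOR inhibitor, had 59.4, 63.4 and 62.1 CPM in control and 19.9, 18.1 and 18.5 CPM in treated libraries (-1.71 ± 0.08, adjusted p = 1.21e-06). Rps6kb2, an S6 kinase, had -0.61 ± 0.17, Mlst8, an mTORC1 subunit, had -0.56 ± 0.14, and Pdcd4, an inhibitor of eIF4A, had -0.45 ± 0.12. Rps6, the ribosomal substrate of S6 kinase, rose (0.40 ± 0.07). The MNK kinases, which phosphorylate eIF4E, moved apart. Mknk2 had 222, 206 and 208 CPM in control and 370, 330 and 316 CPM in treated libraries (0.67 ± 0.08, adjusted p = 0.000136). Mknk1 had 127, 126 and 125 CPM in control and 88.3, 83.7 and 78.0 CPM in treated libraries (-0.60 ± 0.07, adjusted p = 0.000172). Both pairs of groups were separate, and the ratio of Mknk2 to Mknk1 per kilobase of exon went from 1.94 ± 0.0699 to 4.70 ± 0.149.

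Of 5 genes of poly(A)-binding proteins and their partners, 2 rose and 2 fell. Pabpc1, the main poly(A)-binding protein that contacts eIF4G, rose (0.43 ± 0.07), as did Paip2b, which inhibits it (0.76 ± 0.09). Pabpc4, an inducible paralog, had -0.78 ± 0.11, and Paip1, which stimulates translation, had -0.42 ± 0.10, both lower. Auxiliary initiation and recycling factors rose in 6 of 11 genes and fell in 1. Denr, part of the reinitiation factor with Mcts1, had 66.5, 65.2 and 63.1 CPM in control and 148, 143 and 120 CPM in treated libraries (1.08 ± 0.09, adjusted p = 2.68e-05). Bzw1, an eIF5 mimic, rose by 0.86 ± 0.10, and the nuclear cap-binding genes Ncbp1 and Ncbp2 by 0.50 ± 0.06 and 0.42 ± 0.08. Ddx3x, a helicase that aids scanning, fell by 0.35 (adjusted p = 0.00800). Of 9 tested elongation and termination genes, 3 rose and 1 fell. Eef2k, the kinase that inhibits the elongation factor eEF2, had 42.0, 34.4 and 36.8 CPM in control and 7.86, 8.33 and 7.64 CPM in treated libraries (-2.25 ± 0.11, adjusted p = 1.62e-06). The release factor genes Etf1 and Gspt1 rose by 0.52 and 0.19, and Eef1b2, an exchange factor subunit, by 0.39.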

How the data were processed

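Strand-specific RNA-seq libraries were made from total RNA, per the labels' protocols. HISAT2, DESeq2 and the builds rn6 and mm10 are listed, without roles, in the submitters' processing notes, and the gene identifiers are those of mouse. Which program counted the reads, with which strand setting and annotation, is not given in the sources used here. The authors deposited 1 table that holds raw read counts by gene, per the file headers. The deposited table also holds normalised counts, a signal that was found to be the count divided by 1 size factor per sample. It further holds the authors' log2 fold changes and their p-values with adjusted p-values. Raw counts entered all tests here, and the authors' comparison served as an alternative. The normalised counts entered no test.

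Groups follow the treatment in the labels. Counts of all genes were fitted with edgeR 4.0.16 (R 4.3.3): TMM scaling, its filter on low counts (minimum count 10, minimum total 15), quasi-likelihood test, two-sided, no covariates, Benjamini-Hochberg adjustment over 15272 genes, threshold 0.05. The biological coefficient of variation was 18.5%. Library pairs of a group differed by more than sampling noise (chi-square per gene 9.77 to 77.2), so each counted as 1 sample. The SE was the log2 fold change divided by the root of its F statistic. CPM were computed from the deposited counts with TMM scaling, and levels per kilobase with the union of exons. The test was tried on simulated data first. Coordinates, exon lengths and GC content came from GENCODE M21 (GRCm38), with 55141 of 55401 identifiers matched without version.

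The members and the lists of other genes were chosen with earlier results of these data known. Per complex or list, values are given for up to 4 called genes with the largest change and a mean of at least 10 CPM, up to 2 that moved against the majority, and the 2 most abundant where none passed. Further members, and ratios between genes, were described after their values were seen. Alternatives were the size factors of DESeq2, library size only, the Wald test of DESeq2 1.42.0, voom in limma 3.58.1, no filter, a filter of 1 CPM in 3 libraries, a replicate block, each library left out, and lowess corrections (span 0.3) for GC content and length. One microglia marker and the summed level of that list are not reported here.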

Additional observations from a re-analysis of the deposited data

How the results depend on the processing

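Of 768 values of the 48 tested members over 16 alternatives, 704 kept their side of the threshold, 37 lost a call, 25 gained one and 2 turned. A turn was a change of sign in a member called in the fit described above or in the alternative. Sign changes of members called in neither were counted among the 704, such as Eif2s1, at 0.11 and down to -0.09. Both turns came under the GC correction. Eif1ax was then at -0.0075 (adjusted p = 0.940) and not called, and Eif2s2 was called lower at -0.15 (adjusted p = 0.0182). The cause was not tested. Of the 29 called members 22 stayed called in every alternative run. The exceptions were Eif3g, Eif3h, Eif2a, Eif3d, Eif4ebp1, Eif1ax and Eif3a. Of the 19 tested members that were not called, 6 were called in no alternative. Over the alternatives 15 to 21 members were higher and 8 to 14 lower, and the same ranges were found when single libraries were left out. Replicate numbers are shared by both groups, but same-numbered libraries deviated together only weakly (r = 0.206, 0.028 and 0.0759), and not every library correlated best with its own number, so the numbers were not taken to pair the samples. The replicate block gave 19 higher and 11 lower members, 3896 higher and 4209 lower genes over the whole table, and 16 higher and 22 lower of the other pathway genes. Of the members, Eif3a was then not called (adjusted p = 0.0554), and Eif3k (0.0489) and Eif1ad (0.0431) were. Scaling by library size only gave 16 higher and 13 lower members. Sequence shared with other genes limits Eif4a1, Eif3j1, Eif3j2, Eif2s3x, Eif1, Eif3h and Eif4a3, and the low counts of the 5 untested members allow no statement on change.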

Other observations

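The pseudogene row Eif4a-ps4, which was left out of the initiation factors, had 152, 151 and 150 CPM in control and 97.2, 91.5 and 83.9 CPM in treated libraries. Its log2 fold change of -0.73 ± 0.07 stood beside -0.74 ± 0.06 for Eif4a1, and 30.0% of the 50-base stretches of Eif4a1 occur in it. Whether reads of one gene were counted for the other was not tested.

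After the values were seen, the members were also sorted by whether a small nucleolar RNA (snoRNA) lies within the gene on the same strand. Such hosts are Eif4a1, Eif4a2, Eif4g2, Eif5, Eif3a and Eif4g1. Of these 6 tested members 5 fell, none rose and Eif4g1 did not pass, while of the other 42 tested members 18 rose and 6 fell. Among all 206 tested protein-coding host genes, 36.4% rose and 30.1% fell. The grouping was chosen after seeing the values and was not tested.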
